A study of Mus musculus with 8 samples.

Results

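The response of RAW 264.7 macrophages to menthol without LPS was read from 4 of the 8 arrays of the series, 2 labelled menthol (M) and 2 labelled control, and from all genes on those arrays. RAW 264.7 is a macrophage-like line that was derived from a mouse tumour and is widely used to study inflammatory signalling. The cells received menthol or the control treatment for 1 h, and in the other 4 arrays (LPS and LPS+M) 100 ng/ml LPS was then added for 6 h. All 8 arrays shared the line and the serum-containing culture medium, and neither M nor control cells received LPS. The labels give no dose of menthol and no harvest time for the M and control cells. The arrays of a group are called biological replicates, but whether each had its own culture is not stated, so p-values here measure only how far these arrays spread, which may be technical. The deposited values are log2 signals of 45101 probe sets. One probe set was used for each gene, the one with a single symbol and the highest mean over the 8 arrays, which gave 18193 genes, and 8908 of them, with a mean over 4.84 (the average over the whole table), were tested. Calls needed a limma p under 0.05 after Benjamini-Hochberg adjustment and a change of at least 1.5-fold. In the following, values per array are log2 signals, differences are log2 fold changes of M minus control, and values after ± are standard errors of those differences from the fit of all 8 arrays. Signals of different genes come from different probe sets and are not compared with each other.

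Menthol is the cooling compound of mint oil, and its best known target is the cation channel TRPM8. Macrophages respond to many small lipophilic compounds through stress pathways. In the integrated stress response, kinases that sense missing amino acids, misfolded protein or other damage slow translation, and the transcription factor ATF4 then induces genes for amino acid uptake and synthesis together with the CHOP (Ddit3) branch. Sterol synthesis is driven by SREBP2, which is held inactive when cholesterol is plentiful, whereas the nuclear receptor LXR induces cholesterol export. Passage from G1 into S phase is driven by E2F factors that induce the replication genes.

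The 4 arrays used here were close to each other. The signals of the 2 control arrays correlated with Pearson's r = 0.9993 over all probe sets, and those of the 2 M arrays with r = 0.9994, which is a description over probe sets that are not independent. The median standard error of a difference was 0.0799. The 10 macrophage markers, including Adgre1, Cd68 and Csf1r, were all above the filter, and none of them was called, with differences from -0.15 (Adgre1) to 0.29 (Cd14, the LPS coreceptor). Of the 34 measured markers of T and NK cells, B cells, neutrophils and mast cells, fibroblasts, epithelium and endothelium, only S100a8, a neutrophil and myeloid calcium-binding protein, was above the filter (10.78 and 10.80 in the control arrays and 10.85 and 10.88 in the M arrays), and it was not called. None of the 10 measured reference genes was called. Over all tested genes 3.01% were called higher and 1.54% lower, so no call among 10 genes does not show that they were stable.

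M compared to control gave 268 genes that were upregulated and 137 that were downregulated, which is 3.01% and 1.54% of the genes tested. The M and control arrays did not overlap for any of these 405 genes. Both M arrays lay above both control arrays for 3437 tested genes and below them for 2663, and at an adjusted p under 0.05 without a fold minimum 1165 genes were higher and 769 lower. Most called changes were small. The median fold was 1.69 among the upregulated and 1.63 among the downregulated genes, 62 genes rose and 23 fell by at least 2-fold, and 3 rose and 1 fell by at least 4-fold. The median difference over all tested genes was 0.02. When the arrays were shifted to the same median over the tested genes, 213 genes were higher and 186 lower, so the share of upregulated genes among the calls dropped from 66.2% to 53.4%. Of the 268 upregulated genes 170 kept their call when each of the 4 arrays was left out in turn, as did 70 of the 137 downregulated genes. A lone remaining array of a group was then assumed to vary like the other groups.

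Among the 8908 tested genes, the largest rise was in Slc7a11, which encodes the cystine and glutamate exchanger xCT. Its signals were 6.24 and 6.63 in the control arrays and 9.44 and 9.40 in the M arrays, a difference of 2.99 ± 0.12 (adjusted p = 2.66e-05). The control arrays differed from each other by much less than either did from the M arrays. Cnnm2, a membrane protein involved in magnesium transport, had signals of 5.73 and 5.63 in the control arrays and 7.97 and 7.94 in the M arrays and rose by 2.28 ± 0.13 (adjusted p = 0.000132). Aqp9, a channel for water and glycerol, had 5.79 and 5.70 in the control arrays and 7.43 and 7.68 in the M arrays and rose by 1.81 ± 0.15 (adjusted p = 0.000417). Creb3l2, a transcription factor held in the endoplasmic reticulum membrane, rose by 1.73 ± 0.09, Pde3b, a phosphodiesterase that degrades cAMP, by 1.66 ± 0.21, and AI504432, a locus without an assigned function, by 1.80 ± 0.22. For each of these genes both M arrays lay above both control arrays, as for every gene called higher. The 12 largest rises held a receptor and an enzyme of the cAMP pathway, Ptger2 and Pde3b, 2 membrane transporters of amino acids or small solutes, Slc7a11 and Aqp9, and the cholesterol exporter Abca1.

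The largest fall among the tested genes was in Klf2, a zinc finger factor that dampens macrophage activation, with signals of 6.88 and 6.22 in the control arrays and 4.34 and 4.26 in the M arrays. The control arrays differed by more for this gene than for most others, and both stayed above both M arrays. Among the 12 largest falls were 3 chemokines, the sterol enzyme Idi1 and the DNA repair enzyme Ung. Asb2, a substrate receptor of a ubiquitin ligase, had 7.91 and 7.86 in the control arrays and 6.31 and 6.47 in the M arrays and fell by 1.497 ± 0.09 (adjusted p = 0.000132). Rasgrp3, which activates Ras-family GTPases, had 9.28 and 9.05 in the control arrays and 7.98 and 7.86 in the M arrays and fell by 1.25 ± 0.12 (adjusted p = 0.000677). Cirbp, an RNA-binding protein that is induced by mild cold, had 7.79 and 8.05 in the control arrays and 6.95 and 6.51 in the M arrays and fell by 1.19 ± 0.17 (adjusted p = 0.00331). The groups were separate for all of them, as for every called gene, with the M arrays of Cirbp further apart than its control arrays. Gm20300, a predicted gene, fell by 1.53 ± 0.13, and Ptchd1, a protein with a patched domain, fell by 1.35 ± 0.25 but was not called when an array was left out (-1.20 without control replicate 2 and -1.15 without M replicate 1).

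**Figure D1:**
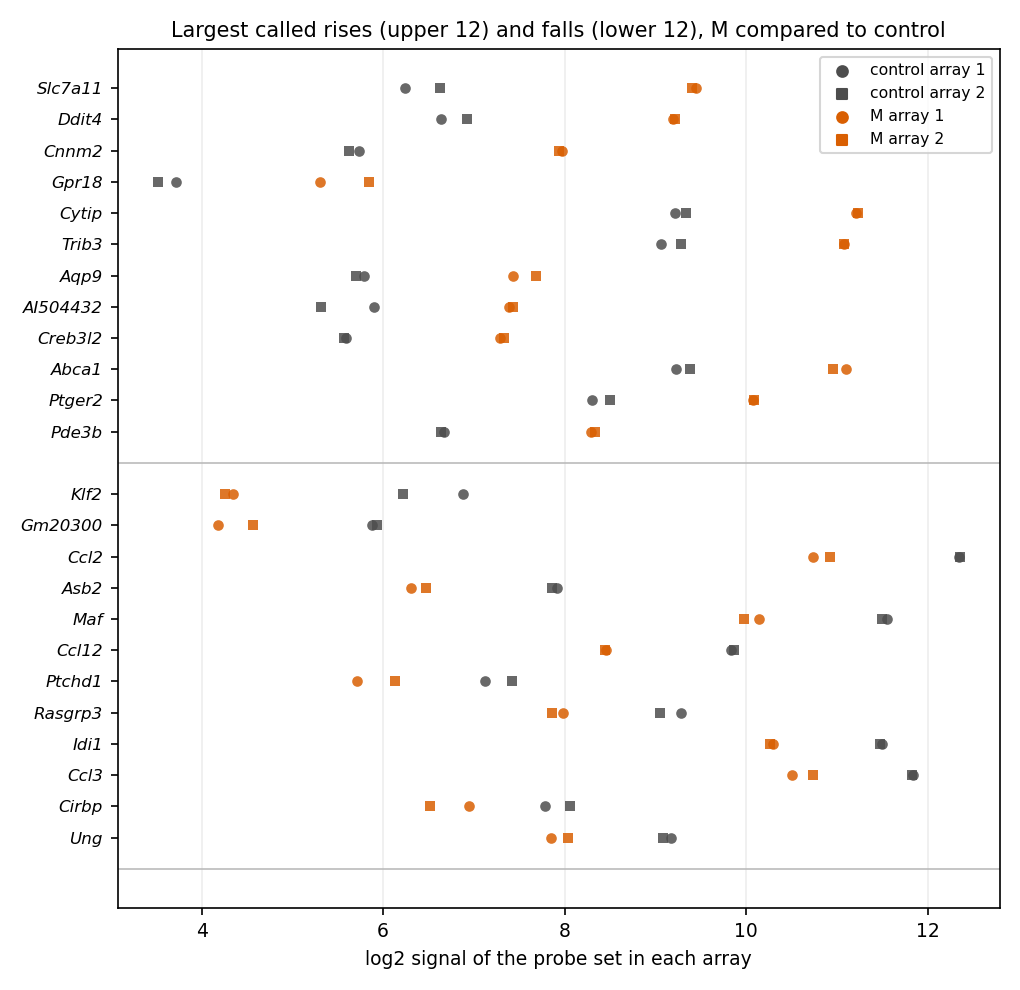
Log2 signal (x axis) of the 12 genes with the largest called rise and the 12 with the largest called fall among the tested genes in M compared to control (y axis), with 1 point for each of the 2 control arrays (grey) and 2 M arrays (orange). The orange points lie right of the grey ones for each gene in the upper block and left of them for each gene in the lower block, and the gap is widest for Slc7a11.

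Genes of the integrated stress response were higher after menthol. Of 25 genes on this list 24 were measured and 20 tested, and 12 of the 20 were called higher and none lower, where 3.01% of all tested genes were called higher. The median difference of the 20 genes was 0.80, beside 0.02 over all tested genes. Ddit4, which inhibits the growth kinase mTORC1, had signals of 6.64 and 6.93 in the control arrays and 9.19 and 9.21 in the M arrays and rose by 2.42 ± 0.09. Trib3, a pseudokinase induced by ATF4 and CHOP, had 9.06 and 9.28 in the control arrays and 11.07 and 11.08 in the M arrays and rose by 1.91 ± 0.10 (adjusted p = 8.87e-05). Gadd45a, a growth arrest gene, had 8.58 and 8.68 in the control arrays and 9.95 and 9.87 in the M arrays and rose by 1.28 ± 0.08 (adjusted p = 0.000132). In each of these the groups were far apart compared with the spread within them. Atf5, a transcription factor of the same pathway, had 10.23 and 10.22 in the control arrays and 11.37 and 11.57 in the M arrays and rose by 1.25 ± 0.08. Nupr1, a stress-induced chromatin protein, had 10.47 and 10.57 in the control arrays and 11.61 and 11.64 in the M arrays and rose by 1.10 ± 0.08. Chac1, which degrades glutathione, had 7.57 and 7.94 in the control arrays and 8.84 and 8.86 in the M arrays and rose by 1.09 ± 0.11. For Chac1 the control arrays differed by more than the M arrays did. Ddit3, the factor CHOP itself, had 7.70 and 8.01 in the control arrays and 8.84 and 8.87 in the M arrays and rose by 0.99 ± 0.10. Cth, the enzyme that makes cysteine from cystathionine, rose by 0.98 ± 0.07, the transcriptional repressor Jdp2 by 0.96 ± 0.06, Ndrg1 by 0.84 ± 0.07, Sesn2, which lowers mTORC1 activity when leucine is scarce, by 0.76 ± 0.15, and Eif4ebp1, which holds back cap-dependent translation, by 0.68 ± 0.07. Of the 12 calls 11 held when each of the 4 arrays was left out, and Sesn2 was not called then (0.76 without control replicate 1, 0.76 without control replicate 2 and 0.71 without M replicate 1).

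The remaining 8 tested members were not called. Atf4 itself had 12.93 and 13.04 in the control arrays and 13.54 and 13.38 in the M arrays, a difference of 0.48 ± 0.09 (adjusted p = 0.00825) that was under the fold minimum, and its partners Cebpb (0.50 ± 0.07) and Cebpg (0.45 ± 0.07) and the transporter subunit Slc3a2 (0.56 ± 0.07) were alike in this. Atf3, a repressor induced by many stresses, had -0.39 ± 0.09 and was not called. The sensor kinase Eif2ak4 had 0.12 ± 0.12.

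Amino acid transporters and the enzymes that supply amino acids were also called in the upward direction alone. Of the 17 transporter genes tested, 5 were called higher and none lower, with a median of 0.26. Over all tested genes 3.01% were called higher. Besides Slc7a11 these were the glycine transporter Slc6a9, with 6.77 and 6.82 in the control arrays and 8.06 and 8.24 in the M arrays and a rise of 1.35 ± 0.12 (adjusted p = 0.000467), the neutral amino acid transporter Slc1a4, with 7.84 and 7.89 in the control arrays and 8.90 and 8.93 in the M arrays and a rise of 1.05 ± 0.09 (adjusted p = 0.000489), the arginine and lysine transporter Slc7a1 (0.72 ± 0.06) and the leucine transporter Slc7a5 (0.59 ± 0.08). Slc7a5 was not called when an array was left out (0.53 without control replicate 2 and 0.56 without M replicate 2) or when the arrays were shifted to the same median over the tested genes (0.54). Of 15 tested enzymes of amino acid synthesis and one-carbon metabolism 2 were called, both higher, namely Cth and the asparagine synthetase Asns, with 12.68 and 12.67 in the control arrays and 13.41 and 13.35 in the M arrays and a rise of 0.70 ± 0.06 (adjusted p = 0.000432). Of 18 cytosolic tRNA synthetases 1 was called, the cysteine enzyme Cars (0.72 ± 0.07), and the median of the list was 0.24. Slc7a11 and Cth stand on more than 1 list and are counted in each.

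The promoters of these genes were searched for TGATGCAA, the letters of a composite element that C/EBP and ATF factors can bind, on both strands of the RefSeq windows from 250 bases before to 50 after the annotated start (GRCm38.p6). The motifs here and below were chosen with the values known. At least 1 window of 279 of 27025 genes held it (1.03%), and of the tested genes 0.693%. Of the 17 tested genes of the stress list with a window 4 held it, Nupr1, Chac1, Jdp2 and Atf3, and the first 3 of these are called. Of the 13 tested transporter genes with a window 3 held it, and the called ones among them are Slc7a11 and Slc1a4. Stretches of 60 bases are shown for the 4 called genes with a match that rose with the stress list or led the transporters, 5′ to 3′ in the direction of transcription, with the match to the motif or its reverse complement in capitals.
Slc7a11, chr3:50443646-50443705, minus strand: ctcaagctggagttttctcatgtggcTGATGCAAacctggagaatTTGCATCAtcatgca
Chac1, chr2:119351023-119351082, plus strand: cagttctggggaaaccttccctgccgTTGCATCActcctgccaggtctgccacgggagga
Nupr1, chr7:126625547-126625606, minus strand: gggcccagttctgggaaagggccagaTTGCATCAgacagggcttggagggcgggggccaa
Jdp2, chr12:85599356-85599415, plus strand: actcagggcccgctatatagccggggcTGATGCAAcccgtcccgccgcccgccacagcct
Of these 4 stretches, that of Slc7a11 holds a match in each orientation. A match is a description of letters and was not tested for binding.

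Other stress pathways held fewer calls than the integrated stress response, where 3.01% of all tested genes were called higher. Shares such as 4 of 22 and 2 of 10 lie above 3.01%, but most tested members of each list were not called. Of 22 tested antioxidant genes of the NRF2 pathway 4 were called higher, Slc7a11, the autophagy receptor Sqstm1 (0.81 ± 0.06), the sulfiredoxin Srxn1 (0.76 ± 0.07) and Osgin1 (0.59 ± 0.11), and the median was 0.09. Osgin1 was not called when an array was left out (0.46 without control replicate 1 and 0.55 without M replicate 2) or after quantile normalization (0.56). Other genes of the pathway were not called. Hmox1, which degrades heme, had 11.39 and 11.42 in the control arrays and 11.50 and 11.52 in the M arrays, a difference of 0.10 ± 0.06, and Txnrd1 and Gclc, which serve thioredoxin and glutathione, had 0.20 ± 0.06 and 0.14 ± 0.09. Of 22 genes for chaperones and the unfolded protein response of the endoplasmic reticulum 2 were called, the sensor Ern1 (0.72 ± 0.11) and the cochaperone Dnajb9 (0.60 ± 0.08), and the chaperone Hspa5 had 0.16 ± 0.07. Dnajb9 was not called in part of the refits (0.56 without control replicate 2). Of 10 cytosolic heat shock genes 2 were called, Hspa4l with 7.49 and 7.53 in the control arrays and 8.46 and 8.46 in the M arrays and a rise of 0.95 ± 0.11, and Hspa1b with 5.00 and 4.84 in the control arrays and 5.70 and 5.72 in the M arrays and a rise of 0.79 ± 0.09. The groups did not overlap for either, as for every called gene. The major chaperones Hspa8 and Hsp90aa1 had -0.07 ± 0.08 and -0.15 ± 0.06 and were not called.

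Genes of sterol synthesis and uptake were lower after menthol. Of 26 genes listed 22 were tested, 8 of the 22 were called lower and none higher, where 1.54% of all tested genes were called lower, and their median difference was -0.53. When the arrays were shifted to the same median over the tested genes 11 were called lower and the median was -0.58. Idi1, which isomerises isopentenyl diphosphate, had 11.50 and 11.47 in the control arrays and 10.29 and 10.26 in the M arrays and fell by 1.21 ± 0.07 (adjusted p = 0.000132). Hsd17b7, a late enzyme of cholesterol synthesis, had 9.80 and 9.84 in the control arrays and 8.77 and 8.87 in the M arrays and fell by 1.00 ± 0.08 (adjusted p = 0.000377). Insig1, which retains the SREBP complex and is itself an SREBP target, had 10.99 and 11.07 in the control arrays and 10.32 and 10.24 in the M arrays and fell by 0.75 ± 0.09 (adjusted p = 0.00173). The control arrays of these genes lay close to each other, as did the M arrays, and the groups were far apart. The lanosterol demethylase Cyp51 fell by 0.70 ± 0.09, the mevalonate decarboxylase Mvd by 0.68 ± 0.07, the squalene synthase Fdft1 by 0.67 ± 0.08, the first committed enzyme Hmgcs1 by 0.66 ± 0.10 and the sterol oxidase Msmo1 by 0.59 ± 0.06. Of the 8 calls 7 held when each array was left out, and Msmo1 was close to the fold minimum (-0.57 without control replicate 1 and -0.55 without M replicate 2). Of the 22 genes 21 had negative differences, among those not called Sqle (-0.56 ± 0.06), Nsdhl (-0.57 ± 0.08) and Fdps (-0.55 ± 0.09). The regulator Srebf2 had -0.35 ± 0.07 and was not called, and Sc5d, a late enzyme, had -0.07 ± 0.07.

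Genes of cholesterol export included a large rise. Of 8 tested LXR targets and efflux genes 2 were called, both higher, beside 3.01% of all tested genes called higher and 1.54% lower. Abca1, which loads cholesterol onto apolipoproteins, had 9.22 and 9.38 in the control arrays and 11.10 and 10.95 in the M arrays and rose by 1.72 ± 0.09 (adjusted p = 0.000103). Abcg1, which exports cholesterol to mature lipoproteins, had 10.16 and 10.18 in the control arrays and 11.00 and 10.81 in the M arrays and rose by 0.74 ± 0.09 (adjusted p = 0.00164). The groups were separate for both, as for every called gene, by more for Abca1. Another probe set of Abcg1, also above the filter, had a difference of 0.01. The rise of Abcg1 was thus not seen on every probe set above the filter. Mylip, another LXR target, had 0.36 ± 0.08 and was not called, nor were the other 5, whose differences ran from -0.18 to 0.25. Of 13 tested fatty acid synthesis genes 1 was called, the fatty acid synthase Fasn, which fell by 0.63 ± 0.08 and was not called when an array was left out (-0.57 without M replicate 1), and the median of that list was -0.16.

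The letters CCAAT, the core of the element bound by NF-Y, a partner of SREBP at sterol genes, were in the window of all 18 tested sterol genes that have one, and in 41.1% of all genes and 43.4% of the tested genes with a window. These 18 include 11 genes that were not called, such as Sc5d. Stretches around the first match are shown for the pair with the largest falls, with the reverse complement in capitals.
Idi1, chr13:8885534-8885593, plus strand: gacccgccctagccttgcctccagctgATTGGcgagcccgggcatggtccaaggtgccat
Hsd17b7, chr1:169969338-169969397, minus strand: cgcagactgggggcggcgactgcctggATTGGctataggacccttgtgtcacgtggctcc

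Genes of DNA replication were lower after menthol. Of 31 tested G1/S and replication genes 10 were called lower and none higher, with a median of -0.51, and 30 of the 31 had negative differences. Over all tested genes 1.54% were called lower. Of 28 tested G2/M and mitosis genes none was called, and their median was 0.06. By limma at an unadjusted p under 0.05 without a fold minimum, 6 of these 28 genes were past the threshold. At the stricter adjusted p under 0.05, 1165 of all 8908 tested genes were higher and 769 lower. These 6 are therefore not read as a response of the list. Cdc6, which loads the replicative helicase, had 9.64 and 9.60 in the control arrays and 8.66 and 8.64 in the M arrays and fell by 0.97 ± 0.10 (adjusted p = 0.000677). Uhrf1, which maintains DNA methylation at replication, had 12.85 and 12.76 in the control arrays and 11.87 and 11.88 in the M arrays and fell by 0.93 ± 0.06 (adjusted p = 0.000189). The helicase subunits Mcm4 and Mcm3 fell by 0.76 ± 0.07 and 0.64 ± 0.08, and Rrm2, a subunit of ribonucleotide reductase, had 13.07 and 13.06 in the control arrays and 12.43 and 12.43 in the M arrays and fell by 0.64 ± 0.06 (adjusted p = 0.000568). These 5 calls held when each of the 4 arrays was left out. The other 5 did not in every case. The cyclin Ccne2 had -0.88 ± 0.22 (-0.91 without control replicate 1, -0.86 without control replicate 2, -0.99 without M replicate 1 and -0.77 without M replicate 2), the chromatin assembly factor Chaf1b -0.63 ± 0.18 (-0.71 without control replicate 1, -0.56 without control replicate 2, -0.54 without M replicate 1 and -0.73 without M replicate 2), Mcm2 -0.63 ± 0.10 (-0.58 without M replicate 2), Dtl, a substrate receptor that limits re-replication, -0.62 ± 0.08 (-0.55 without M replicate 2) and the primase Prim1 -0.59 ± 0.12 (-0.49 without control replicate 2, -0.57 without M replicate 1 and -0.61 without M replicate 2). The sliding clamp Pcna had -0.15 ± 0.07 and E2f1 -0.52 ± 0.12, and neither was called. Ung, the uracil-DNA glycosylase among the 12 largest falls, had 9.17 and 9.08 in the control arrays and 7.85 and 8.04 in the M arrays. Among the mitosis genes Cenpf, a kinetochore protein, had the largest difference (0.54 ± 0.09), and Mki67, Top2a and Cdk1 had -0.03 ± 0.06, -0.02 ± 0.06 and 0.03 ± 0.07. In RNA of whole cultures, fewer cells in S phase and less of these RNAs per cell cannot be told apart.

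Several inhibitors of the cell cycle were higher. Of 21 tested p53 targets and CDK inhibitors 5 were called higher and 2 lower, beside 3.01% and 1.54% of all tested genes. Ccng2, an unusual cyclin that slows the cycle, had 9.06 and 9.12 in the control arrays and 10.31 and 10.26 in the M arrays and rose by 1.20 ± 0.11 (adjusted p = 0.000568). Trp53inp1, a stress-induced p53 cofactor, had 8.96 and 8.97 in the control arrays and 10.18 and 10.13 in the M arrays and rose by 1.19 ± 0.10 (adjusted p = 0.000365). The inhibitor Cdkn1a (p21) rose by 0.65 ± 0.06, the antiproliferative factor Btg2 by 0.89 ± 0.17 (0.80 without control replicate 1 and 0.80 without M replicate 1) and the proapoptotic Pmaip1 by 0.67 ± 0.10 (0.58 without control replicate 1), and the values in brackets were not called. The kinase Plk2 fell by 0.94 ± 0.06, and Sesn1 had -0.70 ± 0.18, a call that did not hold without any 1 of the 4 arrays (-0.71 without control replicate 1, -0.69 without control replicate 2, -0.65 without M replicate 1 and -0.76 without M replicate 2). Of 32 ribosome biogenesis genes none was called and the median was -0.15, with 11 of the 32 at an unadjusted limma p under 0.05. The share of all tested genes at that unadjusted p is not given here, so the 11 are not read as a response.

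E2F-type sites were looked for as TTTGGCGC and TTTCCCGC on both strands. These are different strings, and a window can hold both, as that of Mcm3 does. TTTGGCGC was in a window of 0.585% of all genes, 1.30% of tested genes and 7 of the 26 tested G1/S genes with a window, and 2 of the 7, Dtl and Mcm3, were called. TTTCCCGC was in a window of 1.24% of all genes, 2.72% of tested genes and 4 of the 26, Cdc6, Mcm3, Mcm7 and Rfc3. Stretches are shown for a called gene with each, with the match or its reverse complement in capitals.
Cdc6, chr11:98907987-98908046, plus strand: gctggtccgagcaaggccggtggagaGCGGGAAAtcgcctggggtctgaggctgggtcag
Dtl, chr1:191575545-191575604, minus strand: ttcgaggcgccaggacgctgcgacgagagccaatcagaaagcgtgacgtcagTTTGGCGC

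**Figure D2:**
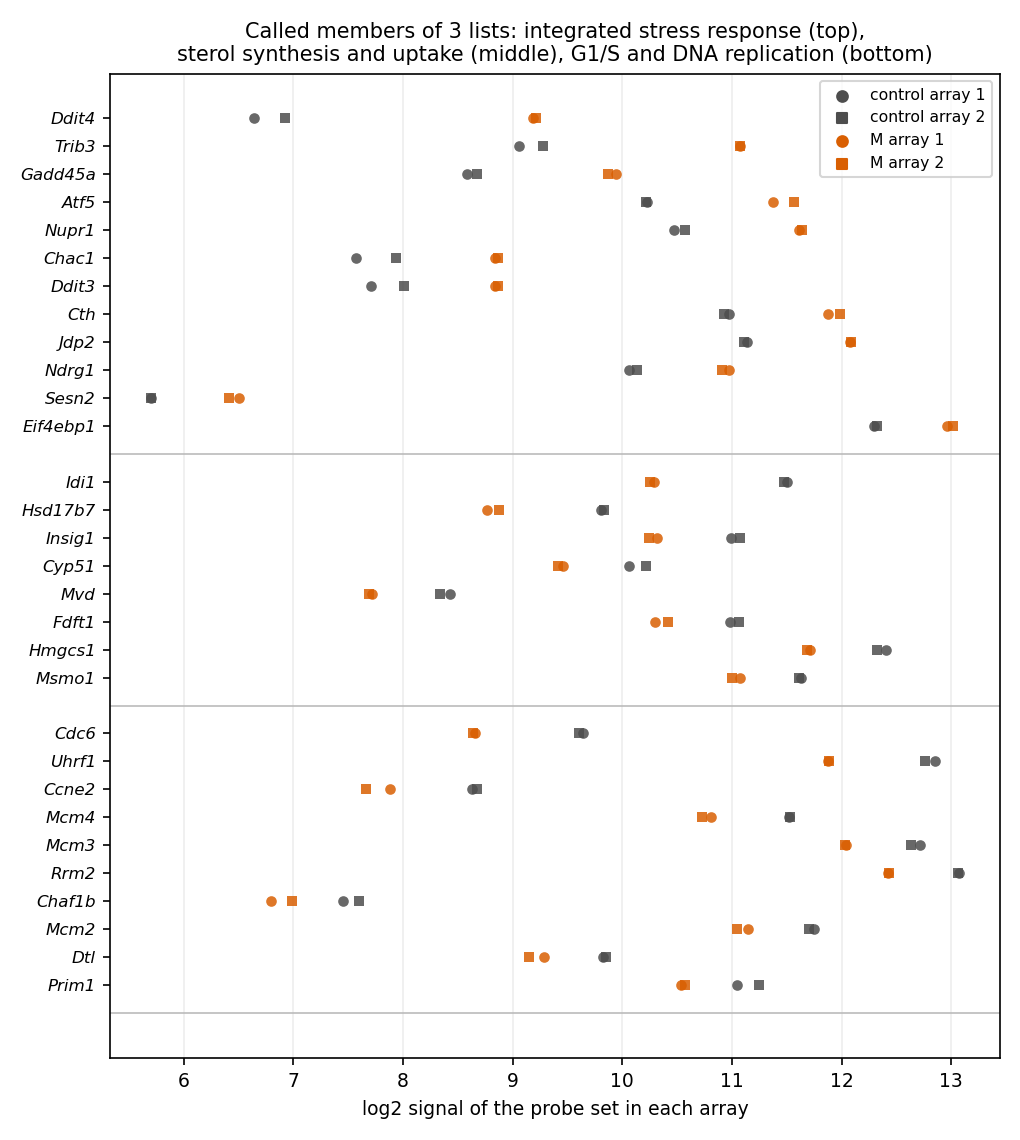
Log2 signal (x axis) in each control array (grey) and M array (orange) of the called members of 3 lists, namely 12 genes of the integrated stress response (top), 8 of sterol synthesis and uptake (middle) and 10 of G1/S and DNA replication (bottom). The orange points lie right of the grey ones for all genes of the top block and left of them for all genes of the other blocks. The absence of overlap holds for every called gene.

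Several chemokine genes were lower, and most cytokine and interferon genes were not called. Over all tested genes 3.01% were called higher and 1.54% lower. Of 10 tested chemokines 4 were called lower and none higher, with a median of -0.32, and all 4 calls held without any 1 of the arrays. Ccl2 and Ccl12, which draw monocytes, had signals of 12.35 and 12.35 in the control arrays and 10.73 and 10.92 in the M arrays and of 9.84 and 9.86 in the control arrays and 8.45 and 8.44 in the M arrays. Ccl3, a macrophage inflammatory protein, had 11.83 and 11.83 in the control arrays and 10.51 and 10.73 in the M arrays and fell by 1.21 ± 0.09 (adjusted p = 0.000287), and the related Ccl4 had 10.64 and 10.49 in the control arrays and 9.45 and 9.67 in the M arrays and fell by 1.01 ± 0.12 (adjusted p = 0.00173). In each of these 4 genes the groups were apart by more than the spread within them. Cxcl2, which draws neutrophils, had -0.36 ± 0.12, Ccl6 -0.28 ± 0.08, Ccl9 -0.05 ± 0.07 and Ccl5 0.12 ± 0.08, and none of them was called. Of 24 tested cytokines and receptors none was called, with a median of 0.19 and 10 at an unadjusted limma p under 0.05. Those 10 stand without the share of all tested genes at that unadjusted p, and are not read as a response. Tnf had 8.29 and 8.55 in the control arrays and 8.43 and 8.31 in the M arrays, with overlapping groups. Il1b, Il6 and Il10 lay under the filter, with signals of at most 3.10 in every M and control array. Of 29 interferon-stimulated genes 2 were called, the antiviral Rsad2 higher (0.88 ± 0.19) and Ifit2 lower (-0.65 ± 0.08), and neither call held in every refit (0.74 without control replicate 1 and 0.55 without M replicate 2 for Rsad2, -0.58 without M replicate 1 for Ifit2).

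Receptors and signalling genes gave single calls in both directions, beside 3.01% of all tested genes called higher and 1.54% lower. Of 11 tested chemokine and chemoattractant receptors 4 were called higher and 1 lower. Gpr18, a receptor for lipid ligands, had 3.71 and 3.52 in the control arrays and 5.30 and 5.85 in the M arrays, and Gpr35, also a metabolite receptor, had 6.42 and 6.44 in the control arrays and 7.59 and 7.79 in the M arrays and rose by 1.26 ± 0.19 (adjusted p = 0.00424). The groups were apart by more than the spread within them in both. Gpr18 was tested because its mean over the 8 arrays was 6.23, above the filter of 4.84. Its mean over the 4 compared arrays was under the filter, so on those arrays alone it would not be tested. With the filter set on the mean of the 4 compared arrays, 264 of the 268 upregulated and 136 of the 137 downregulated genes were still called. Ccrl2, which binds chemerin, rose by 0.66 ± 0.09 (0.57 without control replicate 2), Cxcr4 by 0.60 ± 0.10 (0.56 without control replicate 2 and 0.56 without M replicate 1), and the fractalkine receptor Cx3cr1 fell by 0.61 ± 0.09 (-0.51 without control replicate 1), and the values in brackets were not called. Ptger2, the EP2 receptor for prostaglandin E2 that raises cAMP, had 8.30 and 8.50 in the control arrays and 10.08 and 10.09 in the M arrays and rose by 1.68 ± 0.08 (adjusted p = 7.71e-05). Odc1, the first enzyme of polyamine synthesis, had 12.50 and 12.35 in the control arrays and 13.52 and 13.48 in the M arrays and rose by 1.07 ± 0.07 (adjusted p = 0.000186). Acod1, which makes itaconate, fell by 0.69 ± 0.12 (-0.51 without control replicate 2 and -0.60 without M replicate 1, not called), and the inducible cyclooxygenase Ptgs2 had 0.20 ± 0.13 and was not called. Acod1 also passed the filter only on its mean over the 8 arrays (7.49), with signals of at most 4.61 in the 4 compared arrays.

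Among 28 tested NF-κB subunits and feedback inhibitors 4 were called higher and 1 lower, beside 3.01% and 1.54% of all tested genes. Bcl3, an IκB-family coactivator, had 6.21 and 6.01 in the control arrays and 7.09 and 7.36 in the M arrays, and Socs3, an inhibitor of cytokine signalling, had 7.66 and 7.55 in the control arrays and 8.76 and 8.46 in the M arrays and rose by 1.01 ± 0.12 (adjusted p = 0.00139). The groups did not overlap, as for every called gene, and both calls held without any 1 of the arrays. The phosphatase Dusp5 (0.86 ± 0.17), the A20-binding Tnip1 (0.60 ± 0.07) and, in the other direction, the phosphatase Dusp1 (-0.79 ± 0.18) did not hold their calls (0.69 without control replicate 2 and 0.65 without M replicate 1 for Dusp5, 0.55 without control replicate 1 for Tnip1, -0.46 without control replicate 1, -0.71 without M replicate 1 and -0.86 without M replicate 2 for Dusp1). Of 22 Toll-like receptor pathway genes 1 was called, Tlr1, which pairs with TLR2 and fell by 0.59 ± 0.08 (-0.55 without control replicate 1 and -0.50 without M replicate 2, not called), and the LPS receptor Tlr4 had signals of 11.54 and 11.62 in the control arrays and 11.62 and 11.54 in the M arrays, with overlapping groups. Of 16 immediate-early genes 4 were called higher and none lower, the orphan nuclear receptor Nr4a2 (1.36 ± 0.18), the AP-1 member Fosl2 (0.89 ± 0.09), Ier3 (0.87 ± 0.07) and Klf4 (0.75 ± 0.10), all 4 also without any 1 of the arrays.

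Costimulation and surface genes included further calls. Over all tested genes 3.01% were called higher and 1.54% lower, so 1 or 2 calls are not read as a trait of a list. Of 19 tested genes of costimulation and antigen presentation 3 were called higher and none lower. Cd86, a ligand of CD28, had 9.08 and 9.11 in the control arrays and 10.24 and 10.20 in the M arrays and rose by 1.12 ± 0.07 (adjusted p = 0.000132), and Havcr2 (TIM-3), an inhibitory receptor, had 8.55 and 8.55 in the control arrays and 9.64 and 9.74 in the M arrays and rose by 1.14 ± 0.14 (adjusted p = 0.00207). The activation marker Cd83 had 3.93 and 4.36 in the control arrays and 4.78 and 5.17 in the M arrays and rose by 0.83 ± 0.17, with a wider spread, and was not called in part of the refits (0.62 without control replicate 1 and 0.64 without M replicate 2). Cd83 passed the filter on its mean over the 8 arrays (5.59), whereas its mean over the 4 compared arrays was under the filter. Among 21 scavenger, lectin and TREM receptors and lipid-handling genes Trem1, which amplifies inflammatory signals, had 7.91 and 8.05 in the control arrays and 9.20 and 9.19 in the M arrays, and the lipid genes Fabp4 and Lpl fell by 0.60 ± 0.08 and 0.60 ± 0.07, calls that were lost without 1 array (-0.55 without control replicate 1 and -0.57 without M replicate 1 for Fabp4, -0.57 without control replicate 2 for Lpl). Of 23 macrophage transcription factors, Klf4 and Cebpa were called higher and Maf and Klf2 lower. Maf, which favours an anti-inflammatory state, had 11.54 and 11.49 in the control arrays and 10.14 and 9.98 in the M arrays, while Cebpa (1.02 ± 0.25) was not called without any 1 of the arrays (0.96 without control replicate 1, 1.08 without control replicate 2, 1.08 without M replicate 1 and 0.95 without M replicate 2) and Spi1, the factor PU.1, had -0.02 ± 0.14. Of 23 adhesion genes 2 were called, Cytip, a regulator of leukocyte adhesion with 9.22 and 9.33 in the control arrays and 11.21 and 11.23 in the M arrays, and Tes, a focal adhesion protein with 10.74 and 10.80 in the control arrays and 11.43 and 11.41 in the M arrays. Of 23 Golgi glycosyltransferases Galnt3 (1.32 ± 0.14) and Gcnt2 (1.06 ± 0.26; 1.04 without control replicate 1, 1.09 without control replicate 2, 1.01 without M replicate 1 and 1.12 without M replicate 2, not called) were called higher and B4galt6, a lactosylceramide synthase, and Xylt2, which starts glycosaminoglycan chains, lower (-0.85 ± 0.08 and -0.60 ± 0.06).

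Metabolic and organelle lists held 1 to 3 calls each, beside 3.01% of all tested genes called higher and 1.54% lower. Of 23 tested genes of glycolysis and hypoxia the glucose transporter Slc2a1, with 13.45 and 13.43 in the control arrays and 14.16 and 14.08 in the M arrays, rose by 0.68 ± 0.06, and the oxidase Ero1a, with 10.25 and 10.09 in the control arrays and 10.99 and 11.01 in the M arrays, rose by 0.84 ± 0.08, and both calls held without any 1 of the arrays. Of 35 autophagy and lysosome genes 3 were called higher, Sqstm1, with 12.13 and 12.17 in the control arrays and 12.95 and 12.96 in the M arrays, the kinase Ulk1 (0.83 ± 0.15; 0.77 without control replicate 1 and 0.73 without M replicate 2, not called) and Gabarapl1 (0.60 ± 0.08; 0.58 without control replicate 1 and 0.56 without M replicate 1, not called). Of 30 respiratory chain and mitochondrial genes the coactivator Ppargc1b alone was called (-0.61 ± 0.12; -0.55 without control replicate 1, -0.62 without M replicate 1 and -0.61 without M replicate 2, not called), and the median was -0.02. Of 15 growth factor and FOXO signalling genes Ypel3 had 6.34 and 6.52 in the control arrays and 7.59 and 7.57 in the M arrays and Ypel5 0.60 ± 0.08 (0.57 without M replicate 1, not called). Of 25 apoptosis genes the BH3-only genes Bmf (0.73 ± 0.13; 0.63 without control replicate 1 and 0.56 without M replicate 1, not called) and Pmaip1 were called higher.

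Trpm8 and Trpa1, channel genes through which menthol is known to act, lay under the filter and were not tested. Of 22 TRP channel genes 19 were measured and 7 were tested, and none of the 7 was called. Over all tested genes 3.01% were called higher and 1.54% lower, so no call among 7 genes is not read as a result. Trpm8 had signals of 3.31 and 3.28 in the control arrays and 3.29 and 3.29 in the M arrays, which is under the filter and the same in both groups to within the spread. Trpa1, another channel that menthol affects, had 1.97 and 1.95 in the control arrays and 1.96 and 1.95 in the M arrays, also under the filter. Trpv2 had 10.61 and 10.54 in the control arrays and 10.81 and 10.86 in the M arrays, a difference of 0.26 ± 0.08 (adjusted p = 0.0459) that was under the fold minimum. Trpm7, a channel kinase, had 10.92 and 10.69 in the control arrays and 10.65 and 10.54 in the M arrays, a difference of -0.21 ± 0.14 (adjusted p = 0.32). The differences of the 7 tested genes ran from -0.22 (Mcoln2) to 0.26 (Trpv2). A signal under the filter does not show that a gene is not expressed. Of the 7 tested osteoclast genes, a lineage that RAW 264.7 cells can enter, none was called, which for 7 genes is likewise not read as a result. The largest differences were those of Mitf (-0.46 ± 0.08) and Dcstamp (-0.44 ± 0.09).

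The filter also removed genes that changed from a low level. In a fit of all 18193 genes, 11 genes under the filter were called higher and 15 lower. Gpat3, an enzyme of triglyceride synthesis, had 2.50 and 2.45 in the control arrays and 5.79 and 5.73 in the M arrays (limma adjusted p = 0.00128 in that fit). Its control signals lay below the medians of all probe sets on those arrays (3.01 and 2.99), where signal and background are not told apart, so no fold is given. The chemokine Ccl7 had 5.25 and 5.08 in the control arrays and 3.52 and 3.72 in the M arrays and a difference of -1.54 ± 0.14 (limma adjusted p = 0.00435), which adds to the 4 chemokines above. Both genes were separate between groups by more than the spread within them. Arid5a, an RNA-binding regulator of Il6 transcripts, had 1.73 and 2.13 in the control arrays and 3.74 and 3.59 in the M arrays, and Neurl3, a ubiquitin ligase, had 2.70 and 2.39 in the control arrays and 4.20 and 3.98 in the M arrays. Both were called higher, again from control signals below those medians. The ADP receptor P2ry12 was called lower, with 3.65 and 3.51 in the control arrays and 2.32 and 2.43 in the M arrays, where the M signals lay below the array medians. Fbxo32, a ubiquitin ligase subunit, had a difference of 1.35 ± 0.19, Elavl4, an RNA-binding protein best known in neurons, -1.75 ± 0.06 and Mbp -1.22 ± 0.23, and all 3 stayed above the medians in both groups. Of the genes called with the filter, 231 of the 268 and 113 of the 137 were also called in this fit, in which more genes were tested.

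**Figure D3:**
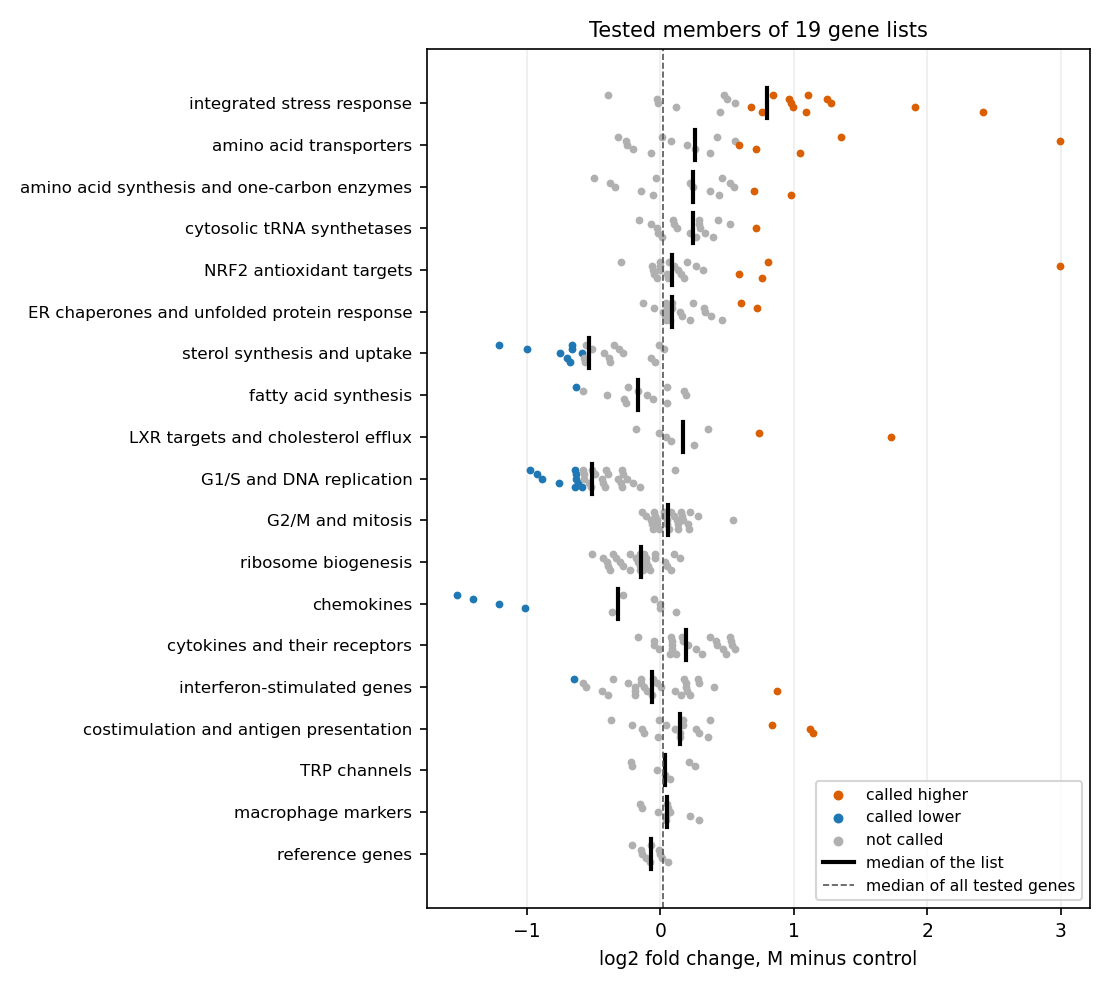
Log2 fold change of M minus control (x axis) for each tested member of 19 gene lists (y axis), with called higher members in orange, called lower in blue and those not called in grey, the median of each list as a black bar and that of all tested genes as a dashed line. The integrated stress response lies to the right (median 0.80), sterol synthesis (median -0.53) and G1/S (median -0.51) to the left, and mitosis, TRP channels and macrophage markers around the dashed line.

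Probe sets of the same gene were compared where the array holds more than 1. Of the 405 called genes, 146 have a single probe set and 108 have others that all lay under the filter, among them Slc7a11, Abca1, Aqp9 and Cnnm2. Of the 151 genes with another probe set above the filter, 141 had all of these in the same direction as the called one and 10 had at least 1 in the other direction. Over 208 such probe sets the median ratio of the other difference to the called one was 0.911. A shared direction does not mean an equal size. Other probe sets above the filter had 0.01 for Abcg1, 0.42, 0.22 and 0.40 for Srxn1, and 0.37, 0.53 and 0.63 for Hspa4l. Wwp1, a ubiquitin ligase, had -0.31 ± 0.08, the ribosome assembly factor Wdr43 -0.11 ± 0.08 and the zinc finger gene Zbtb21 0.20 ± 0.11, and none of them was called. Each had another probe set with a lower difference (-0.85, -0.59 and -0.89). The study lists Wwp1 and Wdr43 among the genes downregulated with menthol, by a Welch test at an unadjusted p under 0.05 and a 1.5-fold minimum. Trib3 had 1.91 on both of its probe sets. Maf had -1.68, -1.81 and -1.60 on 3 further probe sets above the filter, and Slc1a4 had 1.71 and 0.83 on its 2. When all probe sets of a gene were averaged, those near background included, 149 genes were called higher and 104 lower. Of the 405 called genes 224 were then called the same way, 102 were tested and not called, and 79 fell under the filter. The integrated stress response then had 9 genes called higher, sterol synthesis 6 called lower and G1/S 8 called lower, and no cytosolic heat shock gene or tRNA synthetase was called. Of the 115 called genes named here 83 were called, and 6 of these moved by more than 1.5 times, Slc7a11 to 1.499, Cytip to 1.23, Slc6a9 to 0.68, Abca1 to 0.63, Trp53inp1 to 0.59 and Hsd17b7 to -0.59. A further 18 were tested and not called, namely Ddit3 (0.55), Jdp2 (0.48), Eif4ebp1 (0.57), Cyp51 (-0.51), Fdft1 (-0.33), Msmo1 (-0.29), Abcg1 (0.37), Cars (0.36), Slc7a1 (0.49), Srxn1 (0.45), Hspa4l (0.57), Plk2 (-0.47), Sesn1 (-0.53), Prim1 (-0.55), Cx3cr1 (-0.45), Ulk1 (0.41), Tes (0.53) and Ypel5 (0.46). The other 14 fell under the filter, namely Cnnm2 (1.16), Aqp9 (0.91), Galnt3 (0.46), Nr4a2 (0.45), Hspa1b (0.52), Pde4b (0.30), Ern1 (0.14), Bmf (0.24), Gcnt2 (0.13), Chaf1b (-0.32), Dtl (-0.16), Fabp4 (-0.31), Elmo2 (-0.41) and Hivep3 (-0.18).

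The menthol difference was measured again in the presence of LPS, in the LPS+M and LPS arrays, which are not among the 4 arrays above. LPS+M compared to LPS called 376 genes higher (4.22%) and 222 lower (2.49%). Of the 268 genes upregulated by menthol alone 185 (69.0%) were also called higher there and 1 lower, and these 185 are 49.2% of the 376. Of the 137 downregulated genes 90 (65.7%) were also called lower and 1 higher, and these 90 are 40.5% of the 222. The sign was the same for 263 of the 268 and 132 of the 137. The median difference of the upregulated genes was 0.76 without and 0.75 with LPS, and that of the downregulated genes -0.70 and -0.71, while the median over all tested genes in LPS+M compared to LPS was 0.03. Within the stress list 11 of the 12 called genes were also called higher with LPS, with Trib3 at 2.58, Ddit4 at 3.08 and Chac1 at 1.92, and Cth (0.43) was not called there. Among the sterol genes 7 of the 8 were also called lower, with Idi1 at -1.29 and Hsd17b7 at -0.94. Among the G1/S genes 6 of the 10 were, with Cdc6 at -1.69 and Ccne2 at -1.81. The time after menthol may differ between the pairs of groups, because no harvest time is given for M and control.

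The interaction, which is the difference between the menthol effects with and without LPS, had an adjusted p under 0.05 for 22 of the tested genes (0.247%), and 5 of these 22 were among the 405. Cd83, Ccrl2, Hivep3, Ifit2 and Pde4b were those 5. Pde4b, a cAMP phosphodiesterase, rose by 0.85 ± 0.08 without LPS and had -0.02 ± 0.08 with it. Cd83 had 0.83 ± 0.17 without and 3.22 ± 0.17 with LPS, and Hivep3, a zinc finger factor that binds NF-κB sites, had -0.59 ± 0.09 and 0.52 ± 0.09. The 2 genes called in opposite directions were Rsad2, with 0.88 and -0.91, and Elmo2, an adaptor for Rac activation, with -0.59 and 0.61, and their interactions were not past the threshold (adjusted p = 0.06 and 0.0805). Socs3 was called without LPS only (1.01, and 0.08 with LPS), as were Nr4a2 (0.33 with LPS) and Hspa1b (0.08 with LPS), with interaction adjusted p-values of 0.098, 0.206 and 0.106.

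**Figure D4:**
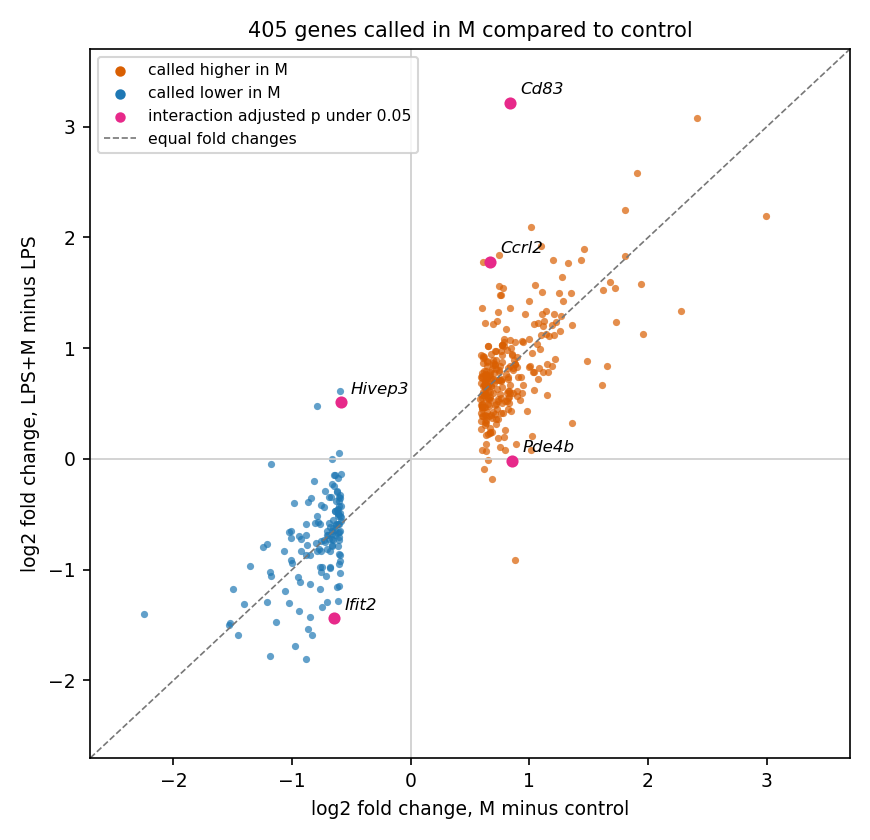
Log2 fold change of LPS+M minus LPS (y axis) against M minus control (x axis) for the 405 genes called in M compared to control, 1 point for each gene, with upregulated genes in orange, downregulated in blue and the 5 genes with an interaction adjusted p under 0.05 in pink and named. Most points lie in the lower left and upper right quadrants around the dashed line of equal fold changes, and Cd83 lies furthest above it.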

How the data were processed

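The authors extracted total RNA, amplified and biotin-labelled it, and hybridised it to Affymetrix mouse arrays. Per the labels, the deposited log2 values come from GCRMA (version 2.10.0) run under R (version 2.6.1). This method models background from probe sequence, quantile normalizes the arrays and gives 1 value for each probe set. They were used as deposited. Of 45101 probe sets, 34945 carry 1 symbol, 932 several and 9160 none, 64 are Affymetrix controls, and only those with 1 symbol were used. All 8 arrays were fitted in R 4.3.3 with limma 3.58.1 (lmFit, eBayes), using 4 group coefficients, 4 residual degrees of freedom and 3.78 prior ones. The filter and the fold minimum follow the study's methods. The calling rule was also run on simulated data with independent normal noise for each gene. That noise has the form the fit assumes, so no support for the calls is drawn from it. Precision is limited by the number of arrays. The gene lists, the genes named, the comparisons and the motifs were chosen with earlier results of these data known. The rule for names took the 12 largest called changes in each direction, up to 5 called members of each list and every tested member of lists of at most 12. It also took TRP channels, macrophage markers, genes called under the filter and those with an interaction. Trem1, Tes, Wdr43, Wwp1 and Xylt2, which the study's text names for control and menthol, and Zbtb21 were added. MBP1, which that text also names, was not in the rule. Members of the lists beyond these were named after their values were seen. Promoter windows are from RefSeq (GRCm38.p6), and 7362 of the 8908 tested genes have one. Other filters, probe set choices, scalings and tests, a replicate block and leaving out each array were tried as alternatives.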

Additional observations from a re-analysis of the deposited data

Results flagged for a closer look

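For 5 genes called in M compared to control, the menthol effect differed between cells with and without LPS by the interaction of the fit of all 8 arrays (limma, adjusted over the 8908 genes). The difference of the effect with LPS minus that without was 2.38 ± 0.24 for Cd83 (adjusted p = 0.0182), 1.12 ± 0.12 for Ccrl2 (adjusted p = 0.0182), 1.11 ± 0.13 for Hivep3 (adjusted p = 0.0222), -0.80 ± 0.11 for Ifit2 (adjusted p = 0.0419) and -0.87 ± 0.12 for Pde4b (adjusted p = 0.0424). Cd83 and Ccrl2 were called higher and Ifit2 lower with and without LPS, with the larger effect with LPS, and Hivep3 and Pde4b were not called with LPS. In M compared to control, Cd83 (0.62 without control replicate 1 and 0.64 without M replicate 2), Ccrl2 (0.57 without control replicate 2), Hivep3 (-0.49 without control replicate 1 and -0.54 without M replicate 2) and Ifit2 (-0.58 without M replicate 1) were not called when an array was left out. The harvest time of M and control is not given, so a difference in time between the pairs of groups cannot be told apart from that of LPS.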

How the results depend on the processing

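Counts of upregulated genes, downregulated genes and genes called the same way with LPS stayed within 1.5 times their values (268, 137 and 275) without the filter, with the other filters, after quantile normalization or a shift to the same median, with trended and robust eBayes, with only the compared arrays and with an unadjusted p. Averaging all probe sets of a gene gave 149, 104 and 173, and testing every probe set by itself 338, 262 and 419. Without a fold minimum the counts were 1165, 769 and 1396, and with a fold of at least 2 they were 62, 23 and 55. The methods' t-test with an unadjusted p gave 177, 77 and 108, and after Benjamini-Hochberg adjustment 0, 0 and 0. Leaving out 1 of the 8 arrays gave 230 to 270, 113 to 138 and 241 to 268. Same-numbered arrays share only a number in the labels, and the deviations of replicate 1 correlated over genes between groups at -0.12 to 0.19. With the replicate block the counts were 270, 138 and 276. Refits of single named genes were counted only where the setting tested the gene. With all probe sets averaged, 14 called genes fell under the filter and were not counted. Of 3861 refits of single named genes 3480 kept direction and call, 334 lost the call, 33 gained it and 14 turned the sign, the latter all in genes that are not called. These were Tlr4 at 0.052 with all probe sets averaged and 0.0054 with arrays shifted to the same median over all probe sets, Top2a at 0.10 and Zbtb21 at -0.24 with all probe sets averaged, and Cdk1 at -0.018 with arrays shifted to the same median over the tested genes. Without 1 array Tlr4 ran from -0.042 to 0.040, Top2a from -0.047 to 0.0042, Cdk1 from -0.033 to 0.092, Eif2ak4 from -0.060 to 0.30, Mki67 from -0.067 to 0.016 and Tnf from -0.18 to 0.081. The cause of these changes was not tested, except that fewer tested genes, fewer arrays or another threshold follow from the settings. With 2 arrays in each group, small differences, and genes near background or under the filter, are not resolved.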
